A study of Mus musculus with 27 samples.

Results

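The products of 10 mouse genes turn cholesterol into conjugated bile acids, and these genes were followed in hepatocyte RNA of 9 inbred strains. They are Cyp7a1, Cyp8b1, Cyp27a1, Cyp7b1, Cyp39a1, Hsd3b7, Akr1d1, Amacr, Slc27a5 and Baat. They were chosen by symbol, for their known place in bile acid synthesis and conjugation, with earlier results of these data known. They make up 10 of the 43346 genes of the count table. All 10 passed the filter on low counts and were among the 14482 genes tested. RNA came from liver cells labelled as hepatocytes, the main cell type of the liver, of female mice aged 12 weeks, with 3 libraries for each strain. The strains were PWK/PhJ and CAST/EiJ, WSB/EiJ, A/J, C57BL/6J, NOD/ShiLtJ, DBA/2J, NZO/HlLtJ and 129S1/SvImJ. All strains are inbred, no treatment is named for any group, and each was set against the other strains since none is a control. The labels call the libraries of a strain biological replicates without saying that each came from its own mouse, so the p-values measure the spread between these libraries. Histone marks and DNA methylation from the wider study were not analysed here.

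Bile acids are made from cholesterol in hepatocytes, and the same hepatocyte carries the pathway from the sterol ring to the finished conjugate. In the classical route the endoplasmic reticulum enzyme Cyp7a1 places a hydroxyl group on the sterol ring and sets the rate, and Cyp8b1 adds the further hydroxyl that makes cholic acid. In the alternative routes the side chain is oxidised first, by Cyp27a1 in mitochondria or by other sterol hydroxylases, and the resulting oxysterols are hydroxylated on the ring by Cyp7b1 or Cyp39a1. The routes join at Hsd3b7 and Akr1d1, which rearrange the ring; Amacr acts on the side chain, and Slc27a5 and Baat couple the acid to coenzyme A and then to taurine or glycine. Bile acids return to the liver and repress their own synthesis through the nuclear receptor Nr1h4 (FXR) and its target Nr0b2 (SHP), and through the intestinal hormone Fgf15 acting on Fgfr4 and Klb.

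Library totals ran from 17015932 to 35078483 estimated counts, so that 1 count was worth between 0.0253 and 0.0516 CPM (the count scaled to its library's size after correction by TMM factors, here 0.722 to 1.226). No pair of libraries within a strain agreed within sampling noise, with a chi-square per degree of freedom of 24.4 or more, and all 27 were counted as separate. Xist had counts in 27 of 27 libraries and the Y-linked Ddx3y and Eif2s3y had 0 in all. The 8 hepatocyte markers summed to between 131404 ± 5254 CPM in CAST/EiJ and 315410 ± 50111 CPM for A/J (SD, n = 3 each). The 8 Kupffer cell markers, which stand for liver macrophages, summed to between 49.1 ± 20.6 CPM in 129S1/SvImJ and 198.7 ± 28.1 CPM in C57BL/6J, and the 7 endothelial markers to between 47.6 ± 12.3 CPM in NZO/HlLtJ and 253.4 ± 176 CPM in PWK/PhJ (SD, n = 3 each). No gene of these lists was at 0 in all libraries. The 5 lymphocyte markers summed to at most 0.84 CPM on average in a strain. Beyond a fit with the Kupffer and endothelial list means, whose values are given beside the calls it changed, the part of these cells in the results was not tested. The marker sums differ between strains, so that fit can also take out strain differences, and a call lost in it does not show that other cells account for the difference. In bulk RNA, fewer cells of a type and less RNA per cell cannot be told apart.

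The RefSeq promoter table (GRCm38.p6) held windows for 4 of the 10 genes, and the 250 bases before each start site are shown because the values given further on divide these genes: Cyp27a1 and Hsd3b7 varied together across libraries, Akr1d1 varied in the opposite direction, and Cyp8b1 had the widest strain range of these genes. Capitals mark matches on either strand to 6 motifs. These were the half-site of the receptor NR5A2, spelled TCAAGG, and the general nuclear receptor half-site, spelled AGGTCA. The others were an HNF4A motif, spelled CAAAGTCCA, the D-box that the factors Dbp and Nfil3 bind, spelled TTATGNAA, the E-box, spelled CACGTG, and the promoter element called the TATA box, spelled TATAAA.
Cyp8b1, chr9:121916306-121916555, minus strand: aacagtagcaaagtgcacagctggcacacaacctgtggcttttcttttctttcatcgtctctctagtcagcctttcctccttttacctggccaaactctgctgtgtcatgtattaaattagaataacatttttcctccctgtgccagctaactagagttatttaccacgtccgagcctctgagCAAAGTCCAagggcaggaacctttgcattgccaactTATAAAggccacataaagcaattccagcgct
Cyp27a1, chr1:74713285-74713534, plus strand: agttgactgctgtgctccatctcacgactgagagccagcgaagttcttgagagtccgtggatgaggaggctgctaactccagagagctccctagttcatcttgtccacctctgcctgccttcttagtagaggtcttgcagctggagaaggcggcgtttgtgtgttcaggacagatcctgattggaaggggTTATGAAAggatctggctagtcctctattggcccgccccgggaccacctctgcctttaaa
Hsd3b7, chr7:127800359-127800608, plus strand: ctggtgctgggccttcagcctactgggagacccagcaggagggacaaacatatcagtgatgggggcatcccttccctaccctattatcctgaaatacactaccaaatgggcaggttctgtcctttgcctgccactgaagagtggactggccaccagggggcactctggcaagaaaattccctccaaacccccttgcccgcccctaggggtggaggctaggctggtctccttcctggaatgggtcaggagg
Akr1d1, chr6:37529923-37530172, plus strand: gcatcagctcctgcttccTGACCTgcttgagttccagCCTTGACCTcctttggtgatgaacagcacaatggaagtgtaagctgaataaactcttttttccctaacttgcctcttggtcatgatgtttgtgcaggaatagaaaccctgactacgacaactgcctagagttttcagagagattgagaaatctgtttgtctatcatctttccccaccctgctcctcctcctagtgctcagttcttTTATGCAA
In Cyp8b1 the HNF4A motif began 67 bases and the TATA box 31 bases before the start site, and in Cyp27a1 a D-box began 60 bases before it. Akr1d1 had a D-box beginning 8 bases before the start and the general half-site on the minus strand at 232 and 210 bases before it, the second sharing bases with a match to the NR5A2 half-site at 213. Hsd3b7 held none of the 6 motifs. In all 32851 promoter windows, searched over the same 300 bases from 250 before to 50 after the start, the HNF4A motif occurred in 0.475%, the D-box in 3.38%, the E-box in 7.15%, the TATA box in 13.6%, the NR5A2 half-site in 14.4% and the general half-site in 16.3%. A match is a description of the letters and was not tied to a measurement of binding.

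The widest strain differences of the 10 genes were in the ring hydroxylases of the alternative routes, Cyp7b1 and Cyp39a1. For Cyp7a1, which starts the classical route, 35.2% of the sum of squares lay between strains and the rest within them. With 9 strains of 3 libraries, a gene without a strain effect also has part of its sum of squares between strains. No strain effect was called for Cyp7a1. Of the 10 genes, 8 had an adjusted p under 0.05 for any difference among the strains (edgeR quasi-likelihood F test, Benjamini-Hochberg adjusted over all tested genes), against 74.2% of all genes tested. Called, with extreme strains at least 2-fold apart in the fit, were 5 of the 10, against 49.3% of all genes tested. The median fitted range between strains was 1.10 on the log2 scale for the 10 genes and 1.18 for all genes tested, and the median share of the sum of squares that lay between strains was 71.3% and 66.6%. By these counts the 10 genes were near the background of all genes. Cyp7b1 and Cyp39a1 had fitted ranges of 4.50 and 7.63 and between-strain shares of 95.9% and 98.3%. The 8 strain effects stayed under the threshold in all 34 alternative settings.

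Cyp7a1 (ENSMUSG00000028240, chr4:6265612-6275633, minus strand, GRCm38), the rate-limiting enzyme of the classical route, had 23.7, 162.6 and 59.5 CPM in the 3 C57BL/6J libraries. The A/J libraries had 56.4, 274 and 188.3 CPM, those of DBA/2J 60.9, 233.3 and 44.1 CPM, and those of NOD/ShiLtJ 249.4, 116.8 and 70.6 CPM. The libraries of each of these strains differed several-fold. CAST/EiJ had 193.3, 84.9 and 189.5 CPM and WSB/EiJ 102, 90.8 and 167.8 CPM, while PWK/PhJ had 104.3, 69.9 and 57.2 CPM. NZO/HlLtJ had 64.2, 57.4 and 139.8 CPM, and 129S1/SvImJ, lowest on average, had 32.3, 75.4 and 35.7 CPM. The highest library of a strain was between 1.82 and 6.86 times the lowest, with the widest spread in C57BL/6J. Strain means ran from 47.8 ± 24 CPM in 129S1/SvImJ to 172.9 ± 110 CPM for A/J (SD, n = 3 each), and the F test did not call a strain effect (edgeR adjusted p = 0.219). Among the 36 pairs of strains only A/J against 129S1/SvImJ was called, with a log2 difference of 1.85 ± 0.67 (SE, edgeR adjusted p = 0.041). No neighbours in the order of means differed. Without the filter on low counts the strain effect was called (edgeR adjusted p = 0.0215), the sole change in 34 alternatives, which ran from there to 0.392.

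Cyp7a1 was set beside 3 clock genes, Alb and the bile acid receptor pair across libraries. Its correlation with Per2, a core clock gene, was 0.484 across the 27 libraries and 0.604 with strain means removed (Pearson r of log2(CPM + 0.5); the libraries share depth and collection). With Dbp, a clock-driven factor that binds D-boxes, r was 0.373 and 0.470, and with the clock repressor Nr1d1 -0.012 and 0.075. With Alb, the albumin gene, r was 0.303 and 0.503. With Nr0b2, the repressor induced by returning bile acids, it was -0.243 and -0.179, and with Nr1h4 -0.143 and 0.025. The time of day at which livers were taken is not given in the sources used here, and its part in the spread was not tested. Dbp itself varied widely within strains: the A/J libraries had 1.32, 50 and 3.99 CPM and the WSB/EiJ libraries 3.33, 3.55 and 48.6 CPM. The library highest in Dbp was also highest in Cyp7a1 in A/J, WSB/EiJ, C57BL/6J and DBA/2J, but not in the remaining strains, and in CAST/EiJ and PWK/PhJ it was the lowest in Cyp7a1.

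Cyp8b1 (ENSMUSG00000050445, chr9:121914356-121916305, minus strand), the sterol hydroxylase that sets the share of cholic acid, was high in WSB/EiJ and PWK/PhJ and low in 129S1/SvImJ and NZO/HlLtJ. The 3 libraries of WSB/EiJ had 514.3, 534 and 922 CPM and those of PWK/PhJ 891.7, 602.3 and 428.6 CPM. The 129S1/SvImJ libraries had 167.4, 127.1 and 136.7 CPM and those of NZO/HlLtJ 132.6, 106.3 and 233 CPM. Every library of the high strains lay above every library of the low strains. Strain means in the others were 466.5 ± 121 CPM in A/J, 412 ± 281 in DBA/2J, 295.6 ± 80.5 in C57BL/6J, 243.7 ± 60.9 in CAST/EiJ and 229.1 ± 13.6 in NOD/ShiLtJ (SD, n = 3 each). DBA/2J held the widest spread, from 204 to 731.5 CPM. WSB/EiJ exceeded 129S1/SvImJ by 2.19 ± 0.39 on the log2 scale (SE, 4.57-fold, edgeR adjusted p = 0.000177). Of the 36 pairs 16 were called, against 23.4% of all tests of a gene in a pair, but no neighbours in the order of means differed.

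Against the mean of the other 8 strains, Cyp8b1 was higher in WSB/EiJ by 1.19 ± 0.25 (edgeR adjusted p = 0.000852) and in PWK/PhJ by 1.15 ± 0.25 (0.000792), and lower in 129S1/SvImJ by 1.27 ± 0.31 (0.00537) and in NZO/HlLtJ by 1.13 ± 0.31 (0.00862; log2 scale, SE). PWK/PhJ also had the highest sum of endothelial markers and NZO/HlLtJ the lowest. With the Kupffer and endothelial list means in the fit, the difference in PWK/PhJ was 0.62 (adjusted p = 0.294) and that in NZO/HlLtJ -0.87 (0.0936). Without NZO/HlLtJ replicate 1 or 2 the latter was -1.01 (adjusted p = 0.0688) or -0.91 (0.0928). Cyp8b1 varied with Alb, the gene of the main secreted hepatocyte protein, with r of 0.756 across libraries and 0.785 with strain means removed. The gene most like it, of 6141 averaging at least 10 CPM, was the clotting factor gene F9 (r = 0.92, Spearman 0.92).

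Cyp27a1 (ENSMUSG00000026170, chr1:74713574-74737892, plus strand), the mitochondrial sterol hydroxylase that opens the alternative route, was highest in C57BL/6J with 541.5, 715.8 and 798.2 CPM. It was lowest in CAST/EiJ with 329.8, 317.9 and 280.1 CPM, and NZO/HlLtJ was next with 322.4, 276 and 422.8 CPM. The C57BL/6J and CAST/EiJ libraries did not overlap. The means of the other strains were at least 452.3 ± 94.6 CPM, in PWK/PhJ, and at most 612.1 ± 32.4 CPM, in WSB/EiJ (SD, n = 3 each). C57BL/6J exceeded CAST/EiJ by 1.15 ± 0.22 on the log2 scale (SE, 2.22-fold, edgeR adjusted p = 0.00021), and 11 of 36 pairs were called. Against the other strains it was lower in CAST/EiJ by 0.72 ± 0.17 (edgeR adjusted p = 0.00176) and in NZO/HlLtJ by 0.57 ± 0.17 (0.0154), and higher in C57BL/6J by 0.57 ± 0.15 (0.0108; log2 scale, SE). C57BL/6J had the highest sum of Kupffer markers, and with the Kupffer and endothelial list means in the fit the log2 difference was 0.46 in C57BL/6J (adjusted p = 0.106) and -0.27 in NZO/HlLtJ (0.291). Leaving out C57BL/6J replicate 4 or 2 gave 0.44 (0.154) or 0.53 (0.071) for that strain, and leaving out NZO/HlLtJ replicate 1 or 2 gave -0.53 (0.0916) or -0.43 (0.151). With a block for replicate number in the fit the difference in CAST/EiJ was -0.56 (edgeR adjusted p = 0.0822).

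Cyp7b1 (ENSMUSG00000039519, chr3:18071950-18243338, minus strand), which hydroxylates the oxysterols that Cyp27a1 makes, had its highest levels in 2 strains. PWK/PhJ had 954.6, 820.9 and 815.5 CPM in its libraries and CAST/EiJ had 478, 326.7 and 314.6 CPM. NOD/ShiLtJ followed with 89.7, 103.7 and 98.9 CPM. The PWK/PhJ libraries lay above all other libraries of the study. In the remaining strains the means lay between 38.3 ± 10.9 CPM for 129S1/SvImJ and 55.9 ± 6.37 CPM for WSB/EiJ (SD, n = 3 each), with 52.5, 52.9 and 53 CPM in NZO/HlLtJ and a spread from 25.9 to 76.3 CPM in DBA/2J. PWK/PhJ was 22.6-fold above 129S1/SvImJ (log2 4.50 ± 0.33, SE, edgeR adjusted p = 9.75e-11) and 16.5-fold above C57BL/6J (log2 4.04 ± 0.32, SE, adjusted p = 6.06e-10). CAST/EiJ was 7.12-fold above C57BL/6J (log2 2.83 ± 0.30, SE, adjusted p = 7.61e-08). The top of the order was resolved step by step: PWK/PhJ above CAST/EiJ (log2 1.21 ± 0.29, adjusted p = 0.00205), CAST/EiJ above NOD/ShiLtJ (1.94 ± 0.29, 1.52e-05) and NOD/ShiLtJ above WSB/EiJ (0.80 ± 0.28, 0.0444). Below that no neighbours differed, and the 21 pairs called of 36 each included PWK/PhJ, CAST/EiJ or NOD/ShiLtJ.

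Cyp7b1 transcripts are known to be more abundant in male than in female mouse liver, and so are those of Cyp4a12b, a fatty acid hydroxylase, which was the gene most like Cyp7b1 by Pearson r (0.89; Spearman 0.30). The PWK/PhJ mean of Cyp4a12b was 198 ± 113 CPM and that of CAST/EiJ 47.8 ± 36.8 CPM (SD, n = 3 each), and no other strain averaged more than 0.378 CPM. It passed the minimum mean of 10 CPM only through these strains, in which Cyp7b1 is also highest, so the Pearson r rests on them. The Y-linked genes were at 0 counts in these libraries too. Estimated counts of Cyp4a12b were not whole in 24 libraries (tolerance 1e-06), so its level is uncertain. Cyp46a1, which makes the oxysterol that Cyp39a1 uses, had r = 0.802 with Cyp7b1 across libraries and 0.332 with strain means removed. The nearest tested protein-coding neighbours of Cyp7b1, chosen after values were seen, were Ythdf3 at 1854913 bases and Armc1 at 888064 bases, and neither was called for a strain difference (edgeR adjusted p of 0.184 and 0.257).

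Cyp39a1 (ENSMUSG00000023963, chr17:43667425-43751431, plus strand), the other oxysterol ring hydroxylase, was at its lowest in NZO/HlLtJ and PWK/PhJ. NZO/HlLtJ libraries had 0.663, 0.557 and 0.962 CPM, from 26, 22 and 30 counts. PWK/PhJ libraries had 2.60, 1.86 and 2.29 CPM, from 65, 54 and 69 counts. WSB/EiJ was highest, with 82.6, 171.1 and 173.7 CPM. The NZO/HlLtJ libraries lay below all others of the study, and those of PWK/PhJ below all strains but NZO/HlLtJ. Means in between ran over 71.4 ± 15.5 CPM in CAST/EiJ, 57.9 ± 5.09 in C57BL/6J, 54.1 ± 11.5 in 129S1/SvImJ, 37.8 ± 6.57 in NOD/ShiLtJ, 30.5 ± 10.8 in A/J and 17.3 ± 3.60 in DBA/2J (SD, n = 3 each). WSB/EiJ exceeded NZO/HlLtJ 197-fold (log2 7.63 ± 0.37, SE, edgeR adjusted p = 1.01e-13), and C57BL/6J exceeded it 80.2-fold (log2 6.33 ± 0.35, SE, adjusted p = 1.76e-12). C57BL/6J was 25.8-fold above PWK/PhJ (log2 4.69 ± 0.32, SE, adjusted p = 4.21e-11). Of the 36 pairs 29 were called, the most of the 10 genes. Neighbours in the order that differed were WSB/EiJ above CAST/EiJ (log2 1.00 ± 0.26, adjusted p = 0.00481), DBA/2J above PWK/PhJ (2.94 ± 0.31, 6.18e-08) and PWK/PhJ above NZO/HlLtJ (1.64 ± 0.35, 0.000846). CAST/EiJ, C57BL/6J and 129S1/SvImJ were not separated from each other.

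The nearest tested protein-coding neighbours of Cyp39a1 and Cyp8b1 were also named after their values were seen. Slc25a27, a mitochondrial carrier gene 211 bases from Cyp39a1, was also lowest in NZO/HlLtJ (0.121 CPM) and highest in WSB/EiJ (1.86 CPM), with r = 0.673 to Cyp39a1, while PWK/PhJ and CAST/EiJ had 0.525 and 0.519 CPM. As 1 count was worth 0.0253 to 0.0516 CPM, the NZO/HlLtJ mean of Slc25a27 lay near the floor. The likeness of Slc25a27 to Cyp39a1 is thus uncertain. Rcan2, a calcineurin regulator gene 49920 bases away, was highest in PWK/PhJ (40 CPM) and lowest in WSB/EiJ (1.52 CPM), with r = -0.601. Ackr2, a chemokine receptor gene 3282 bases from Cyp8b1, was highest in PWK/PhJ (6.70 CPM) and lowest in 129S1/SvImJ (1.23 CPM), with r = 0.867. Fam198a, on the other side of Cyp8b1 at 34683 bases, was highest in DBA/2J (28.2 CPM) and lowest in CAST/EiJ (1.87 CPM), with r = 0.185. The gene most like Cyp39a1 was the steroid hydroxylase gene Cyp17a1 (r = 0.84, Spearman 0.86), with 656 ± 159 CPM in WSB/EiJ and 10.9 ± 12.3 CPM in NZO/HlLtJ (SD, n = 3 each). In PWK/PhJ, the strain next lowest in Cyp39a1, Cyp17a1 had 71.9 ± 30.4 CPM, beside 70.7 ± 27.4 CPM in A/J (SD, n = 3 each).

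In the tests of each strain against the other 8, the extreme strains of Cyp7b1 and Cyp39a1 shift the mean that every other strain is set against. Cyp7b1 was thus called lower in A/J, C57BL/6J, WSB/EiJ, NZO/HlLtJ, DBA/2J and 129S1/SvImJ, and Cyp39a1 was called higher in A/J although its 30.5 CPM there lay under the arithmetic mean of 48 CPM in the other strains. The same held for Cyp39a1 in NOD/ShiLtJ, called higher by 0.91 ± 0.19 (log2, SE, edgeR adjusted p = 0.00112) at 37.8 CPM against 47.1 CPM in the other strains. The pairs above describe these genes better. Without DBA/2J replicate 4 the call of Cyp7b1 in DBA/2J had an adjusted p of 0.0662. Calls of Cyp7b1 were also lost in C57BL/6J without its replicate 1 or 2 (0.0732 or 0.0603) and in WSB/EiJ without its replicate 2 or 4 (0.0728 or 0.0823), and that of Cyp39a1 in A/J without its replicate 1 or 3 (0.243 or 0.247) and with the GC trend removed (0.0583). With the other-cell list means in the fit the difference of Cyp7b1 in NZO/HlLtJ was -0.63 (adjusted p = 0.111).

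**Figure D1:**
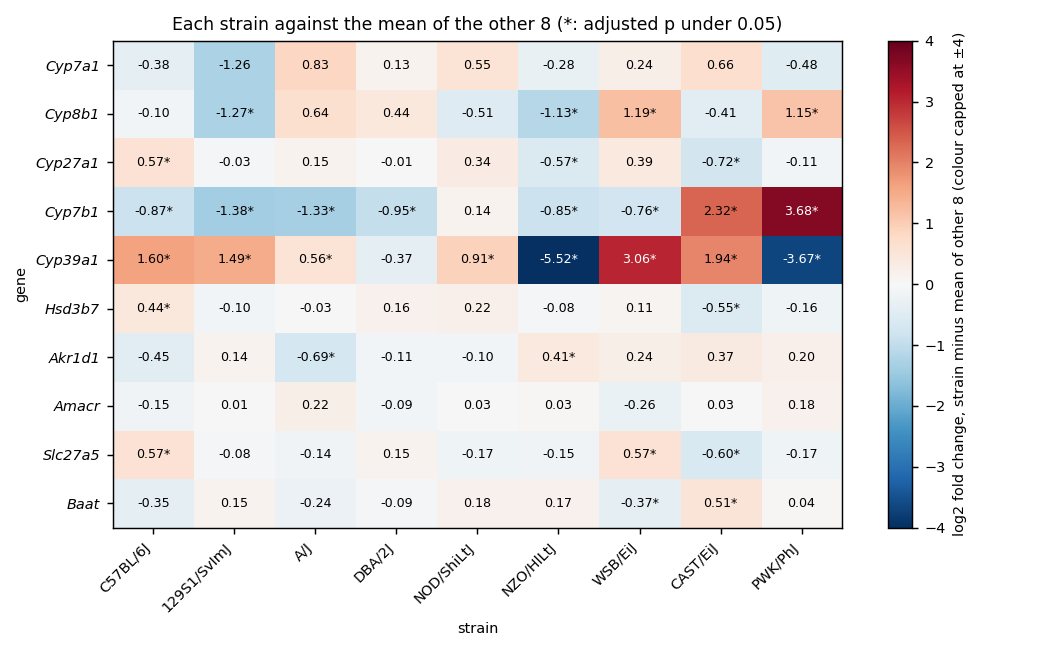
Log2 fold change of each gene (rows) in each strain (columns) against the mean of the other 8 strains, from the edgeR fit; an asterisk marks an adjusted p under 0.05, and colours are capped at 4. The Cyp39a1 values of -5.52 in NZO/HlLtJ and -3.67 in PWK/PhJ and the Cyp7b1 values of 3.68 in PWK/PhJ and 2.32 in CAST/EiJ stand apart, and the calls of those genes in the remaining strains are set against means that hold these strains.

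Set side by side per length of transcript, the ring hydroxylases Cyp7a1, Cyp7b1 and Cyp39a1 made up different mixtures in different strains. Their summed level, in CPM per kilobase of exon, ran from 45.5 ± 11.1 in NZO/HlLtJ and 46.9 ± 4.76 in 129S1/SvImJ to 233 ± 49.6 in CAST/EiJ and 418 ± 42.2 in PWK/PhJ (SD, n = 3 each). The remaining strains lay between 55.7 ± 28.7 in DBA/2J and 101.3 ± 22.9 in WSB/EiJ (SD, n = 3 each). Cyp7b1 made up 95.5% ± 0.93 of the sum in PWK/PhJ and 73.9% ± 6.84 in CAST/EiJ, and Cyp7a1 4.36% ± 0.932 and 15.8% ± 5.01 (SD, n = 3 each). In NZO/HlLtJ the sum was Cyp7b1 (55.5% ± 11.8) and Cyp7a1 (44% ± 11.8), with 0.52% ± 0.039 from Cyp39a1. WSB/EiJ was the strain in which Cyp39a1 had the largest mean share, 45% ± 8.62, and A/J the strain in which Cyp7a1 had, 54.8% ± 21.3 (SD, n = 3 each). In C57BL/6J the mean shares were 27.7% ± 17.3 for Cyp7a1, 39.9% ± 10.9 for Cyp7b1 and 32.4% ± 9.74 for Cyp39a1. Within C57BL/6J the share of Cyp7a1 ran from 14.4% to 47.2%, and within CAST/EiJ from 10.6% to 20.6%. These are shares of transcript, and the enzymes differ in substrate.

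**Figure D2:**
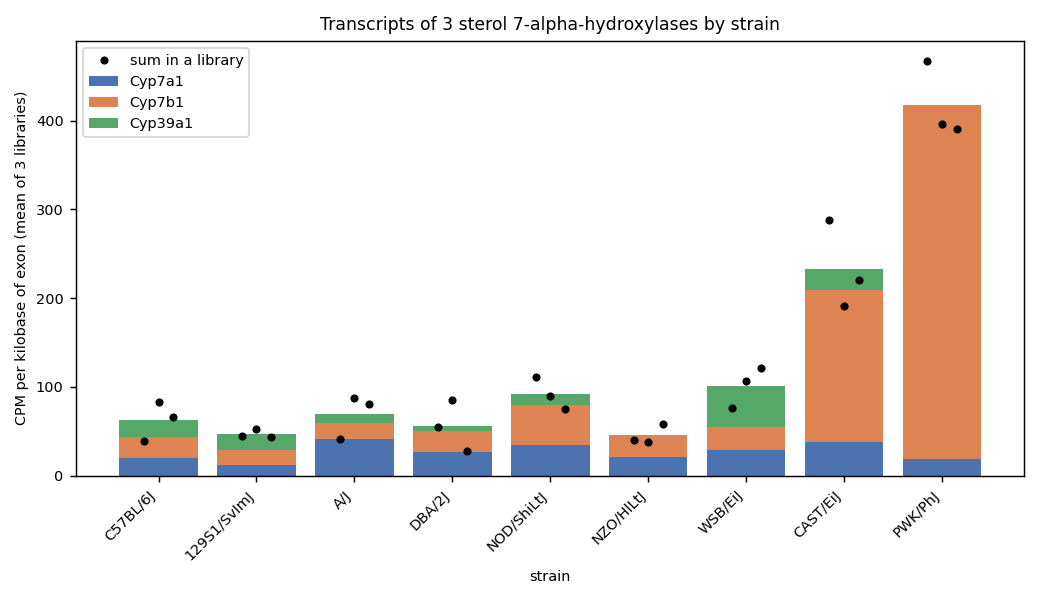
Bars show the mean level of Cyp7a1, Cyp7b1 and Cyp39a1 in each strain, stacked, in CPM per kilobase of exon (linear axis from 0), and points the sum in each of the 3 libraries. The libraries of PWK/PhJ and CAST/EiJ lie above those of every other strain, and Cyp39a1 is hardly visible in NZO/HlLtJ and PWK/PhJ.

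Hsd3b7 (ENSMUSG00000042289, chr7:127800604-127803802, plus strand), the dehydrogenase that all routes need to rearrange the ring, was highest in C57BL/6J with 760, 819.9 and 945.2 CPM and lowest in CAST/EiJ with 520.7, 441.8 and 413.5 CPM. The libraries of these strains did not overlap, and the strain means of the others lay between 582 ± 112 CPM in PWK/PhJ and 735.6 ± 29.6 CPM in NOD/ShiLtJ (SD, n = 3 each). The difference between the extremes was 0.88 ± 0.15 on the log2 scale (SE, 1.83-fold, edgeR adjusted p = 6.35e-05). CAST/EiJ was lower than the other strains by 0.55 ± 0.12 (adjusted p = 0.000622) and C57BL/6J higher by 0.44 ± 0.11 (0.00553; log2 scale, SE). The latter was 0.33 (adjusted p = 0.168) with the other-cell list means in the fit and 0.35 (0.104) without C57BL/6J replicate 4. The estimated counts of Hsd3b7 were not whole in 27 libraries (tolerance 1e-06), and its exons overlap the annotated genes Gm49388 and 9430064I24Rik. Neither of these was among the genes analysed here, so a division of reads with them was not tested, and the values of Hsd3b7 are uncertain. The other members had whole counts throughout.

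Akr1d1 (ENSMUSG00000038641, chr6:37530173-37568815, plus strand), the reductase that gives bile acids their bent ring, followed another order. NZO/HlLtJ was highest with 207.1, 254.6 and 241.5 CPM and CAST/EiJ next with 223.8, 195.9 and 268 CPM, while A/J was lowest with 141, 124.3 and 91.9 CPM. The A/J libraries lay below all libraries of NZO/HlLtJ and CAST/EiJ. Other means lay between 138.7 ± 15.7 CPM for C57BL/6J and 211.9 ± 47.2 CPM for WSB/EiJ (SD, n = 3 each). NZO/HlLtJ exceeded A/J by 0.98 ± 0.21 on the log2 scale (SE, 1.97-fold, edgeR adjusted p = 0.00118). A/J was lower than the other strains by 0.69 ± 0.17 (log2, SE, adjusted p = 0.00334). Without A/J replicate 3 the difference was -0.55 (adjusted p = 0.0642). The call in NZO/HlLtJ (0.41 ± 0.15, adjusted p = 0.0475) was lost in 18 of 34 alternatives, with 0.20 (adjusted p = 0.524) when the other-cell list means were in the fit.

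Amacr (ENSMUSG00000022244, chr15:10981756-10996626, plus strand), the racemase of the side chain, was the steadiest of the 10 genes. Its strain means lay between 70.5 ± 4.29 CPM in WSB/EiJ and 94.6 ± 16.1 CPM for A/J (SD, n = 3 each), and all 27 libraries between 63.2 and 107.8 CPM. The F test did not call it (edgeR adjusted p = 0.206), none of 36 pairs was called, and the fitted range was 0.42 on the log2 scale. It was called in 2 alternatives, with the other-cell list means (0.0304) and without DBA/2J replicate 4 (0.0411), within a range of adjusted p up to 0.441.

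Slc27a5 (ENSMUSG00000030382, chr7:12988346-12998192, minus strand), the ligase that activates bile acids with coenzyme A, was the most abundant of the genes per length, with a mean of 563 CPM per kilobase of exon. C57BL/6J had 1539, 1944 and 2241 CPM and WSB/EiJ 1733, 2262 and 1729 CPM, while CAST/EiJ was lowest with 881.8, 981.9 and 913.5 CPM. All libraries of C57BL/6J and WSB/EiJ lay above those of CAST/EiJ. The remaining means lay between 1206 ± 405 CPM in PWK/PhJ and 1473 ± 381 CPM in DBA/2J (SD, n = 3 each). C57BL/6J exceeded CAST/EiJ by 1.04 ± 0.22 on the log2 scale (SE, 2.06-fold, edgeR adjusted p = 0.000599). Against the other strains it was higher in C57BL/6J (0.57 ± 0.15, adjusted p = 0.0106) and in WSB/EiJ (0.57 ± 0.15, 0.00744) and lower in CAST/EiJ by 0.60 ± 0.17 (0.00763; log2 scale, SE). With the other-cell list means in the fit the difference in C57BL/6J was 0.34 (adjusted p = 0.246). Leaving out C57BL/6J replicate 2 or 4 gave 0.56 (0.0594) or 0.44 (0.159) there, and leaving out WSB/EiJ replicate 3 gave 0.43 (0.116) in that strain. The difference in CAST/EiJ was -0.54 with a block for replicate number in the fit (edgeR adjusted p = 0.107).

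Baat (ENSMUSG00000039653, chr4:49489422-49506557, minus strand), the acyltransferase that joins bile acids to taurine or glycine, was highest in CAST/EiJ with 223.6, 238.9 and 246.6 CPM, above every other library. It was lowest in WSB/EiJ with 130.8, 132.2 and 149.3 CPM and in C57BL/6J with 138.8, 148.2 and 131.6 CPM. This order was close to the reverse of that of Slc27a5, whose highest strains were the lowest here. CAST/EiJ exceeded WSB/EiJ by 0.78 ± 0.17 on the log2 scale (SE, 1.72-fold, edgeR adjusted p = 0.000763). CAST/EiJ was higher than the other strains by 0.51 ± 0.12 (adjusted p = 0.00152) and WSB/EiJ lower by 0.37 ± 0.13 (0.0367; log2 scale, SE). The WSB/EiJ call was lost in 5 alternatives, among them those without its replicate 2 (-0.34, adjusted p = 0.153), 3 (-0.35, 0.157) or 4 (-0.43, 0.0593). That in CAST/EiJ was lost with a block for replicate number in the fit (0.44, edgeR adjusted p = 0.0651).

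Against the mean of the other strains the 10 genes gave 32 calls over the 9 strains. CAST/EiJ had 6, with 3 higher and 3 lower, where 20.1% of all genes tested were called higher and 17.8% lower (37.9% in all). C57BL/6J had 4 higher and 1 lower, against 11.6% and 6.5% of all genes (18.1%). WSB/EiJ had 3 higher and 2 lower, against 15.5% and 9.25% (24.7%). The genes higher in C57BL/6J were Cyp27a1, Cyp39a1, Hsd3b7 and Slc27a5, and those higher in WSB/EiJ were Cyp8b1, Cyp39a1 and Slc27a5. NZO/HlLtJ had 1 higher and 4 lower, against 14.8% and 12.9% of all genes (27.6%). PWK/PhJ had 2 higher and 1 lower, against 19.4% and 14.8% (34.2%). A/J had 1 higher and 2 lower, against 15.9% and 11.6% (27.5%), and 129S1/SvImJ the same counts against 10.5% and 7.86% (18.4%). Fewest were called in NOD/ShiLtJ, with Cyp39a1 higher, 1 gene, against 9.2% of all genes (5.72% lower, 14.9% in all), and in DBA/2J, with 1 lower against 3.78% (9.5% higher, 13.3% in all). The median log2 change of the 10 genes lay between -0.22 in NZO/HlLtJ and 0.24 in WSB/EiJ, where that of all genes tested lay between -0.01 and 0.02. Several counts fell when 1 library was left out. In C57BL/6J 2 of the 5 calls were kept without its replicate 2, without its replicate 4 or with the Kupffer and endothelial list means in the fit. In NZO/HlLtJ 2 of 5 were kept without its replicate 1 or 2, and 1 of 5, Cyp39a1, with the list means. In WSB/EiJ 3 of 5 were kept without its replicate 2, 3 or 4, in A/J 1 of 3 without its replicate 3, and in DBA/2J 0 of 1 without its replicate 4. In CAST/EiJ 3 of 6 were kept with a block for replicate number in the fit. Over the 36 pairs 112 of 360 tests were called, against 23.4% of all tests.

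Across libraries 2 groups of genes, picked out of 45 pairs, varied in opposite directions. Cyp27a1, Hsd3b7 and Slc27a5 varied together, with Pearson r of log2 CPM from 0.776 to 0.812 over 27 libraries and from 0.714 to 0.820 with strain means removed. Akr1d1 and Baat went together, with r of 0.679 and 0.838. Between these groups r lay between -0.776 and -0.364 over libraries and between -0.831 and -0.492 within strains. Amacr had r of -0.542, -0.470 and -0.690 with Cyp27a1, Hsd3b7 and Slc27a5, and of -0.801, -0.527 and -0.644 with strain means removed. Cyp7b1 changed sign, from -0.263, -0.432 and -0.380 with the same genes to 0.639, 0.640 and 0.413. With Akr1d1 and Baat it went from 0.272 and 0.315 to -0.536 and -0.641. Cyp8b1 had 0.458, 0.193 and 0.414 with Cyp27a1, Hsd3b7 and Slc27a5, and 0.660, 0.473 and 0.657 with strain means removed. The groups differed in base composition: the longest transcripts of the first 3 genes had 53.5%, 53.9% and 53.1% GC, and those of Akr1d1 and Baat 40.9% and 44.9%. The slope of log2 CPM on GC content of each library had r of 0.421, 0.439 and 0.472 with the first 3 genes and -0.546 and -0.577 with Akr1d1 and Baat, strain means removed, and of 0.272, 0.282, 0.389, -0.206 and -0.363 over the 27 libraries. After each library's GC trend was taken out, an alternative chosen after seeing the data, r over the 27 libraries ran from 0.719 to 0.769 in the first group, was 0.672 for Akr1d1 with Baat and ran from -0.733 to -0.285 between the groups. With strain means removed as well, these were 0.612 to 0.780, 0.810 and -0.754 to -0.375. TMM factors also differed between libraries. In PWK/PhJ replicates 1 and 3 they were 0.878 and 1.12, with Slc27a5 at 1652 and 861.3 CPM and Baat at 133.4 and 205.1 CPM. A/J and NZO/HlLtJ had similar means of Slc27a5 (1231 and 1217 CPM) at factors of 0.722 to 0.900 and 1.16 to 1.23. The part of library composition in these correlations was not tested. The libraries share depth and preparation, and no test was made of these correlations. Genes most like members were Ccdc107 for Cyp27a1 (r = 0.89), Mtfp1 for Hsd3b7 (0.89), Tex261 for Slc27a5 (0.90), Otc for Akr1d1 (0.91), Eif4e for Baat (0.92), Nme2 for Amacr (0.81) and Apon for Cyp7a1 (0.63), over 27 libraries.

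**Figure D3:**
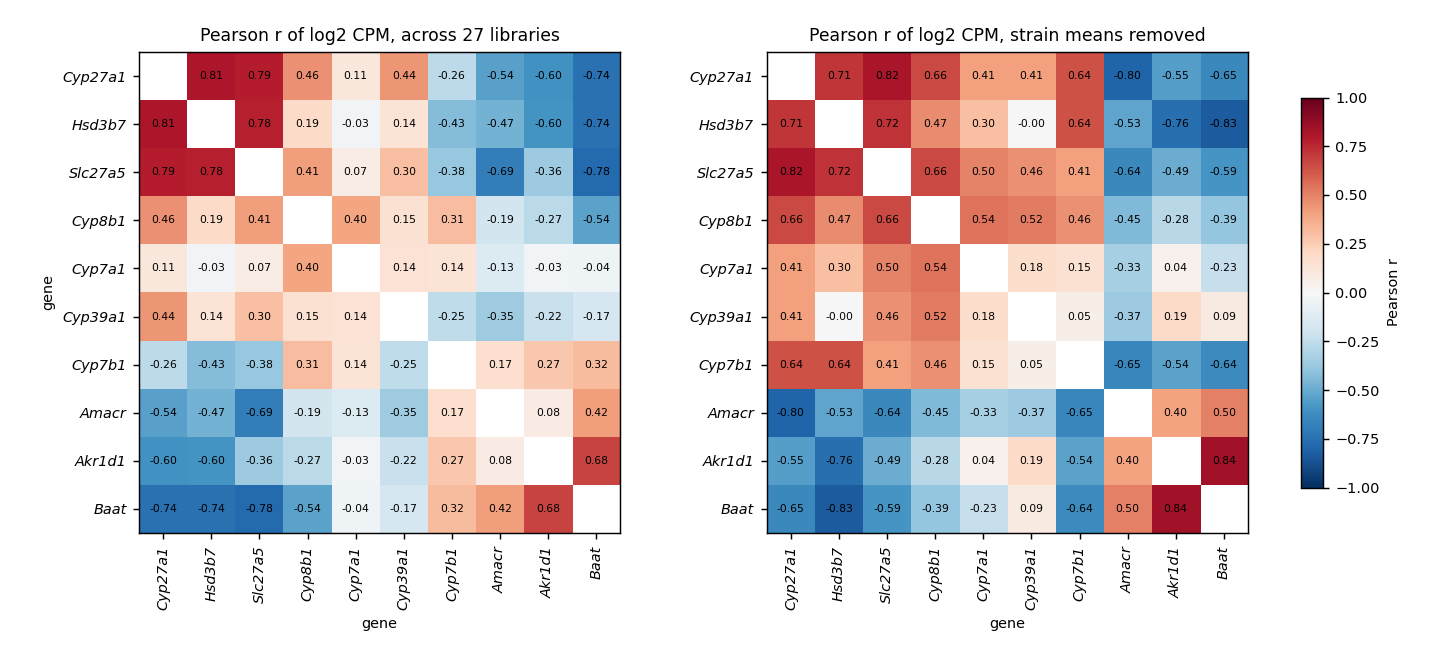
Pearson r of log2 CPM between the 10 genes, over the 27 libraries on the left and with each strain's mean removed on the right. Cyp27a1, Hsd3b7 and Slc27a5 form a block of r from 0.714 to 0.820 with strain means removed, Akr1d1 and Baat have 0.838, and the values between these groups are negative in both panels; Cyp7a1 has r between -0.13 and 0.40 with the other genes over the 27 libraries.

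Other enzymes of the pathway also differed among strains. Of 12 listed, 11 were tested and 10 called (Ch25h was not tested and Hsd17b4 was not called), against 74.2% of all genes, with a median fitted range of 1.42 against 1.18. These lists were drawn up with results of these data known. Cyp46a1 (ENSMUSG00000021259), the cholesterol hydroxylase whose product feeds Cyp39a1, had 141.8, 102.3 and 80.7 CPM in PWK/PhJ and 100.8, 99.4 and 80.6 CPM in NOD/ShiLtJ. CAST/EiJ averaged 29.4 ± 3.53 CPM, WSB/EiJ 10.6 ± 1.67 and every other strain at most 3.82 (SD, n = 3; edgeR adjusted p = 1.29e-14 over strains). Its r with Cyp39a1 was -0.067 across libraries and -0.306 with strain means removed. Cyp2a12, a liver P450 that hydroxylates bile acids, was lowest in NOD/ShiLtJ with 145.6, 137.4 and 110.3 CPM and highest in WSB/EiJ with 1438 ± 118 CPM (SD, n = 3; adjusted p = 3.07e-10); its counts were not whole in 27 libraries. Acox2, the peroxisomal oxidase of the side chain, ran from 111 ± 11.2 CPM in WSB/EiJ to 236.8 ± 37.6 in CAST/EiJ (SD, n = 3 each; adjusted p = 6.88e-08). Cyp2c70, which makes the muricholic acids of rodents, was highest in WSB/EiJ at 1743 CPM and lowest in CAST/EiJ at 600.4 CPM (adjusted p = 0.000166).

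Regulators had smaller fitted ranges, with a median of 0.78 against 1.18 for all genes tested. Of 12 tested, 8 were called, against 74.2% of all genes; Hnf4a, Fgfr4, Mafg and Prox1 were not called. Nr1h3, the oxysterol receptor LXR alpha, had 126, 104.7 and 109.1 CPM in CAST/EiJ, above all other libraries, and was lowest in A/J at 42.8 ± 3.84 CPM (SD, n = 3; edgeR adjusted p = 1.96e-06). Klb, the co-receptor of Fgf15, ran from 32.6 ± 2.01 CPM in NOD/ShiLtJ to 64.7 ± 9.95 in A/J (adjusted p = 6.73e-05), and Rxra, the partner of these receptors, from 199.9 ± 20.7 in A/J to 367.1 ± 39.4 in CAST/EiJ (0.00195; SD, n = 3 each). The receptor Nr1h4 and its target Nr0b2 were near the threshold, with adjusted p of 0.0444 and 0.0466. Nr1h4 ranged from 37.6 CPM in A/J to 59.4 in 129S1/SvImJ, and Nr0b2 from 22.6 in CAST/EiJ to 47.9 in NOD/ShiLtJ.

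Of the 14 transporters of bile acids and sterols 13 were tested and 12 called (Slc51a was not tested and Abcc4 was not called), against 74.2% of all genes, with a median fitted range of 1.40 against 1.18. In NZO/HlLtJ 9 of the 13 were lower and 0 higher than in the other strains, where 12.9% of all genes tested were lower. NZO/HlLtJ also had the lowest endothelial marker sum (47.6 ± 12.3 CPM), with the lowest strain means of Stab2, Kdr, Pecam1, Cdh5 and Tek among the 7 genes. Its hepatocyte marker sum (133364 ± 3600 CPM, SD, n = 3) was the lowest after that of CAST/EiJ, with Apoa1, Trf and Apob lowest in NZO/HlLtJ, and its Kupffer marker sum was 54.7 ± 23.3 CPM (SD, n = 3), with Clec4f lowest there. The stellate cell marker sum was lowest in NZO/HlLtJ (24.4 ± 7.51 CPM, SD, n = 3), with Lrat, Des and Dcn, of its 7 genes, each at the lowest level of the 9 strains. Their part in the lower transporters was not tested. The bile salt export pump Abcb11 had 338.7, 440.2 and 531.7 CPM there, below all other libraries, a log2 change of -1.45 ± 0.17 (SE, edgeR adjusted p = 7.96e-07), and was highest in WSB/EiJ with 1804 ± 344 CPM (SD, n = 3); its counts were not whole in 26 libraries. The sterol exporter Abcg5 ran from 52.5 ± 4.10 CPM in NZO/HlLtJ to 153.8 ± 26.5 for A/J (SD, n = 3 each; adjusted p = 1.88e-06). Slc51b, a subunit of the basolateral bile acid exporter, was scarce everywhere and highest in WSB/EiJ at 3.45 ± 0.518 CPM (SD, n = 3; adjusted p = 8.87e-06). The 14 clock genes were all tested and 11 called, against 74.2% of all genes, Clock, Per1 and Ciart being the exceptions. Per2 ran from 0.899 ± 0.154 CPM in PWK/PhJ to 13.2 ± 5.77 in CAST/EiJ (adjusted p = 5.98e-06), Nr1d1 from 10.9 ± 2.41 in NZO/HlLtJ to 71.8 ± 21.5 in CAST/EiJ (0.000118) and Nr1d2 from 19 ± 4.88 in NZO/HlLtJ to 52.3 ± 23 in WSB/EiJ (0.000307; SD, n = 3 each). Dbp averaged 0.566 CPM in NOD/ShiLtJ and 20.7 CPM in CAST/EiJ (adjusted p = 0.00171). Counts of Nr1d1 and Dbp were not whole in 27 libraries.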

How the data were processed

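RNA of 27 hepatocyte libraries was measured by sequencing of polyadenylated RNA (TruSeq RNA kit, per the labels' protocols). The authors deposited a table of estimated counts (expected counts) per Ensembl gene, not scaled to depth. The submitters' processing notes name GRCm38, mm10, FastQC 0.11.5 and DESeq2, without roles. The aligner, the counter, the annotation release and the use of strain-specific genomes are not given in the sources used here; an effect of the reference on counts of single strains was not tested. No strand-specific protocol is stated. GENCODE M21 gave symbols for 42462 of 43346 gene IDs and the coordinates (GRCm38) and exon lengths printed.

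Estimated counts were rounded to whole numbers. With edgeR 4.0.16 (R 4.3.3, limma 3.58.1) low genes were removed by filterByExpr, strain as group; counts were scaled by TMM and fitted in a single quasi-likelihood model of all 27 libraries. Strain effects were tested by an F test, by each strain against the mean of the other 8 strain coefficients, and by the 36 pairs. P-values were adjusted by Benjamini and Hochberg over all 14482 genes within each test and called under 0.05. Standard errors come from the F statistic. A call in a pair or strain that is not made does not show that levels are equal. For correlations between members log2 CPM had a prior count of 2; for neighbours and regulators log2(CPM + 0.5) served. The test was checked on simulated data. GC content was that of the longest transcript, known for 99.1% of tested genes, and the trend was a lowess curve with a span of 0.3.

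The members and gene lists were chosen with earlier results of these data known. Named from each list were the 3 genes with the smallest adjusted p in the F test, plus Nr1h4, Nr0b2, Cyp2c70 and Dbp, and for each member the gene with the highest Pearson r. Alternatives were DESeq2 1.42.0, median-of-ratios size factors, no filter, a minimum mean count of 10, a block for replicate number, Kupffer and endothelial list means (log2 CPM) as covariates, the GC trend and leaving out each library.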

Additional observations from a re-analysis of the deposited data

How the results depend on the processing

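Under 34 alternatives the 4 totals below stayed within 1.5 times their values. The total of members with a strain effect, 8 of 10, could not have risen that far. Of the alternatives 27 each left out 1 library. No called strain effect or strain contrast of a member turned its direction, and counts within single strains moved more. Members with a strain effect were 8, from 8 to 9 in all alternatives. Calls of a strain against the others were 32, with 35 by DESeq2, 27 with the replicate block, 29 with the Kupffer and endothelial list means, 34 with the GC trend removed and from 28 to 37 when a library was left out. Calls among pairs were 112, with 130, 85, 100, 120 and from 98 to 131 in the same order. Other pathway genes called were 41, with 45, 37, 41, 43 and from 38 to 43. Of all genes tested 74.2% had a strain effect in the main fit. In the same order the share was 79%, 64.6%, 66.6%, 76.2% and from 69.7% to 75.6%. Median-of-ratios factors gave 8, 32, 109 and 41, no filter 9, 33, 109 and 44, and a mean of at least 10 counts 8, 32, 116 and 41. Of all genes tested in these fits 74.7%, 46.4% and 76.2% had a strain effect. Shares of all genes in the strain contrasts and pairs were not computed under the alternatives.

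Of the 32 calls of a strain against the others, 14 held in all 34 alternatives, and 8 were lost with the list means. Over 76 pairs of same-numbered libraries the correlation of deviations from strain means ran from -0.293 to 0.275, with a median of 0.023 and 17 over 0.1. Over 248 pairs with different numbers it ran from -0.469 to 0.338, with a median of -0.005 and 44 over 0.1. The numbers thus gave little sign of pairing over all genes together. A batch shared by some strains or acting on some genes was not tested. With the replicate block 5 were lost, among them Baat, Cyp27a1 and Slc27a5 in CAST/EiJ (edgeR adjusted p of 0.0651, 0.0822 and 0.107), leaving 3 of 6 calls in that strain; the cause was not tested. Depth limits genes with few counts, such as Cyp39a1 in NZO/HlLtJ, at 22 to 30 counts, and Slc51b in NOD/ShiLtJ, at 2 to 13.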
